A study of Mus musculus with 12 samples.

Results

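Col1a1, Col1a2 and Col3a1, the genes of the main fibrillar collagens, were followed across 12 mouse liver RNA-seq libraries in 4 groups. The genes were picked by symbol, and they were 3 of the 3799 genes in the deposited table. Livers came from male C57BL/6J mice, 8 weeks old at the start, with 3 libraries per group. Mice of the DOX, DOX + K35 and DOX + K27 groups received doxorubicin, a chemotherapy drug that damages DNA and was used to bring on senescence, at 10 mg/kg into the peritoneum on days 0 and 7. The Saline group, which the labels call vehicle, received saline in its place. The mice given doxorubicin then received K35 or K27 (50 mg/kg) or their vehicle by gavage on alternate days from day 2. No gavage of the Saline group is described. The livers were collected on day 20. K27 is an analog of K35, and both are known here only by these codes. Doxorubicin, dose and schedule were the same in the 3 treated groups, so that the 2 compounds could be compared at a matched dose and time.

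Fibrillar collagens are the rods of the extracellular matrix. Type I collagen is built from the alpha 1 chain encoded by Col1a1 and the alpha 2 chain encoded by Col1a2, and type III collagen from the single chain encoded by Col3a1, which often shares fibrils with type I. In liver these genes are expressed mainly by hepatic stellate cells and portal fibroblasts and little by hepatocytes, and their transcripts are a common measure of the fibrotic response to injury. In whole-liver RNA, fewer or more cells of a type cannot be told apart from less or more RNA per cell.

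On GRCm38, Col1a1 (ENSMUSG00000001506) lies on the plus strand of chromosome 11 from 94936224 to 94953042, and its longest annotated transcript has 51 exons and 5930 bases. Col1a2 (ENSMUSG00000029661) lies on the plus strand of chromosome 6 from 4504814 to 4541544, with 52 exons and 5348 bases in its longest transcript. Col3a1 (ENSMUSG00000026043) lies on the plus strand of chromosome 1 from 45311538 to 45349706, with 51 exons and 5564 bases. The 3 genes thus sit on different chromosomes and have transcripts of similar length and exon number. An unverified gene model, Gm43921, overlaps Col1a2, and a predicted microRNA gene, Gm47302, overlaps Col3a1, both on the same strand. Neither is among the genes of the table, nor are the genes whose starts lie next closest.

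RefSeq promoter windows, which run from 250 bases before to 50 after a gene's start on GRCm38.p6, were found for 2 of the 3 genes. The stretches of these windows that lie before the start and outside annotated exons are shown to set the base composition of the 2 promoters side by side, since the genes differ there while their levels ran together. Both are read on the plus strand, and capitals mark the letters GGGCGG, the core of a GC box.
Col1a2, chr6:4505370-4505492: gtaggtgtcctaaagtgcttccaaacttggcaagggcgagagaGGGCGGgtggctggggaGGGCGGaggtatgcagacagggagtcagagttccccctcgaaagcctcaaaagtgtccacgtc
Col3a1, chr1:45311288-45311537: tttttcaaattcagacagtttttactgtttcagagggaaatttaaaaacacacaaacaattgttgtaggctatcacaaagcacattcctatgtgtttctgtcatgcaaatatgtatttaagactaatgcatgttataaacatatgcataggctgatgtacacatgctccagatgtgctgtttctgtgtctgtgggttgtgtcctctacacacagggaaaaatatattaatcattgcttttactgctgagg
Over the whole 300-base window, Col1a2 had a GC content of 61%, higher than in 73.1% of the 32851 windows, and Col3a1 had 37.7%, higher than in only 6.63% of them. GGGCGG, searched on both strands and found in 35.7% of all windows, occurred in the Col1a2 window at positions -205 and -188 from the RefSeq start, and not in that of Col3a1. CCAAT, the letters of a CCAAT box, occurred in 37.4% of windows. The Col1a2 window held it at position -109 and, on the reverse strand, at the start itself, while the Col3a1 window did not hold it. These matches describe the letters of the windows and were not tied to any measured binding.

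The values deposited by the authors are scaled to gene length, carry no unit in their header and were read here as FPKM, the number of fragments per kilobase of a transcript relative to library size. With no read counts in the table, sequencing depth is unknown, and the spread between livers is the only measure of precision. Its 3799 genes are a selection made by the authors from these same livers, and the presence of a gene in it is therefore not independent of its expression here. Labels and table do not use the same codes for every library. Libraries B3 and B4 were known to be DOX and C4 to be DOX + K35, but not which replicate they are.

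The libraries differed in the share of signal from the 13 mitochondrially encoded genes. Of the FPKM summed over the 3799 genes of the authors' selection, they took 62.2% to 83.3% in DOX and 48.2% to 61.9% in Saline. Their share was 37.9% to 48.7% in DOX + K35 and at most 68.0% in DOX + K27, and it was highest in B4. Their share of the whole library is not known. The median over the 3317 genes tested, those with a mean of 1 FPKM or more, was 3.35 FPKM in B4 and 5.46 to 7.39 FPKM in the other 11 libraries. The median value of the genes tested was thus lowest in B4.

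Col1a1 was the lowest of the 3 genes, with 0.793, 0.686 and 0.443 FPKM in the Saline libraries A1, A2 and A3. In the DOX libraries B1, B3 and B4 it stood at 1.67, 2.13 and 0.751 FPKM. In the DOX + K35 libraries C1, C2 and C4 it stood at 1.93, 1.68 and 0.630 FPKM, and in the DOX + K27 libraries D1, D2 and D3 at 1.68, 1.20 and 2.37 FPKM. All treated libraries except B4 and C4 lay above the highest Saline library. The group means were 0.641 ± 0.179 FPKM for Saline, 1.52 ± 0.704 for DOX, 1.41 ± 0.689 for the K35 group and 1.75 ± 0.587 for the K27 group (mean ± SD, n = 3 each).

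Col1a2, whose product joins that of Col1a1 in type I collagen, had 1.72, 1.65 and 1.10 FPKM in Saline. It had 2.87, 3.24 and 1.55 FPKM in B1, B3 and B4, and 3.08, 2.94 and 1.45 FPKM in C1, C2 and C4. The DOX + K27 libraries had 3.32, 2.24 and 3.58 FPKM. The same 7 of 9 treated libraries lay above every Saline library, and B4 and C4 lay inside the Saline range. The means were 1.49 ± 0.342 FPKM for Saline, 2.55 ± 0.890 for DOX, 2.49 ± 0.906 for the K35 group and 3.04 ± 0.712 for the K27 group (mean ± SD, n = 3 each).

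Col3a1, the chain of type III collagen, had 3.67, 3.27 and 2.03 FPKM in Saline. It had 5.86, 6.35 and 3.23 FPKM in B1, B3 and B4, and 6.18, 5.75 and 1.37 FPKM in C1, C2 and C4. The DOX + K27 libraries had 5.88, 4.52 and 6.07 FPKM. C4 held the lowest Col3a1 value of all 12 libraries, below the Saline range, while C1 of the same group was the second highest after B3. The means were 2.99 ± 0.857 FPKM for Saline, 5.15 ± 1.68 for DOX, 4.43 ± 2.67 for the K35 group and 5.49 ± 0.843 for the K27 group (mean ± SD, n = 3 each).

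**Figure D1:**
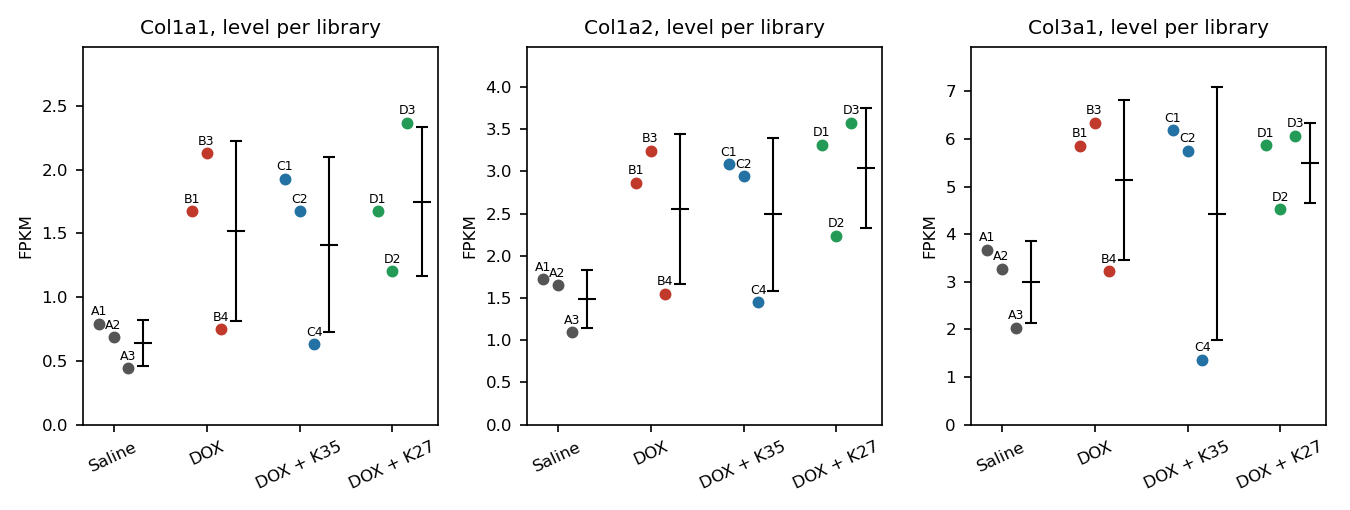
Level of Col1a1, Col1a2 and Col3a1 in FPKM in each of the 12 libraries, by group, with the group mean and SD beside the points. For each gene 7 of 9 treated libraries lie above the 3 Saline libraries, and B4 of DOX and C4 of DOX + K35 lie among or below them.

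On this per-length scale Col3a1 exceeded Col1a2 and Col1a2 exceeded Col1a1 in 11 of 12 libraries. The exception was C4, where Col1a2 stood at 1.45 FPKM and Col3a1 at 1.37 FPKM. Between the highest and the lowest library the 3 genes varied 5.35-fold, 3.26-fold and 4.65-fold in the order Col1a1, Col1a2 and Col3a1. Their means over all libraries, 1.33, 2.39 and 4.52 FPKM, lay at percentiles 17.2, 30.6 and 46.8 of the genes in the table. These ranks hold within the authors' selection and not among all genes of the liver. For all 3 genes the group means ran in the order DOX + K27, DOX, DOX + K35 and Saline from high to low, but neighbours in that order overlapped for every gene and did not differ beyond their spread (exact permutation p = 0.3 to 0.8).

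The first comparison asked how the collagen transcripts differed between DOX, which had neither compound, and Saline. The mean in DOX was 2.37 times that in Saline for Col1a1, 1.71 times for Col1a2 and 1.72 times for Col3a1, and for each gene the 2 groups overlapped through B4 alone. On the log2(FPKM + 1) scale, which understates changes of low genes, the differences were 0.58 for Col1a1 (SE 0.26, 95% interval 0.031 to 1.13), 0.49 for Col1a2 (SE 0.25, -0.051 to 1.03) and 0.60 for Col3a1 (SE 0.37, -0.18 to 1.39). In limma with Benjamini-Hochberg adjustment over 3317 genes the adjusted p-values were 0.0913, 0.137 and 0.1997, so none of the 3 passed the threshold of 0.05. Of all genes tested only 0.181% (6 genes) passed in this comparison, and 47.4% had an unadjusted p under 0.05, as Col1a1 did (0.0398). Col1a1 met the filter of a mean of 1 FPKM only through the treated groups, since each Saline library held less than 1 FPKM. Its place among the genes tested, in each comparison with Saline, thus rests on its level in those groups. With no filter its limma adjusted p between DOX and Saline was 0.0908. The exact two-sided permutation test of the FPKM values gave p = 0.2, 0.3 and 0.3, in a design of 3 against 3 that cannot go below 0.1.

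Relative to the other genes of the table the 3 collagens stood high in DOX. The median log2 difference of all genes was -0.34, and those of Col1a1, Col1a2 and Col3a1 lay at percentiles 93.0, 89.4 and 93.7. When each library was rescaled by the median ratio of its genes to their average, which brought the median difference to -0.039, the differences were 0.82, 0.79 and 0.97, and all 3 genes passed (limma adjusted p = 0.0435, 0.0435 and 0.0477). Like the other rescalings below, it was computed from the authors' selection of genes alone. Median-ratio scaling takes the typical gene as unchanged, which could not be checked there, and it removes any shift shared by most of those genes. Under this scaling 18.5% of genes passed as higher and 11.6% as lower, against 0.0301% and 0.151% as deposited, so the collagens were among many genes whose call turned with the scale. The rescaled means were 0.605 ± 0.131 in Saline and 1.85 ± 0.572 in DOX for Col1a1, 1.41 ± 0.234 and 3.18 ± 0.548 for Col1a2, and 2.82 ± 0.633 and 6.43 ± 0.909 for Col3a1 (SD, n = 3 each). All 3 DOX libraries then lay above every Saline library for each gene, which was so for 25.8% of genes tested. Scaling by the sum without the mitochondrially encoded genes and quantile normalization also placed all 3 DOX libraries above Saline (25.2% and 23.6% of genes), but the collagens did not pass under either. Rescaling acted mostly on B4, whose median ratio was 0.526 against 0.852 to 1.22 in the other libraries.

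**Figure D2:**
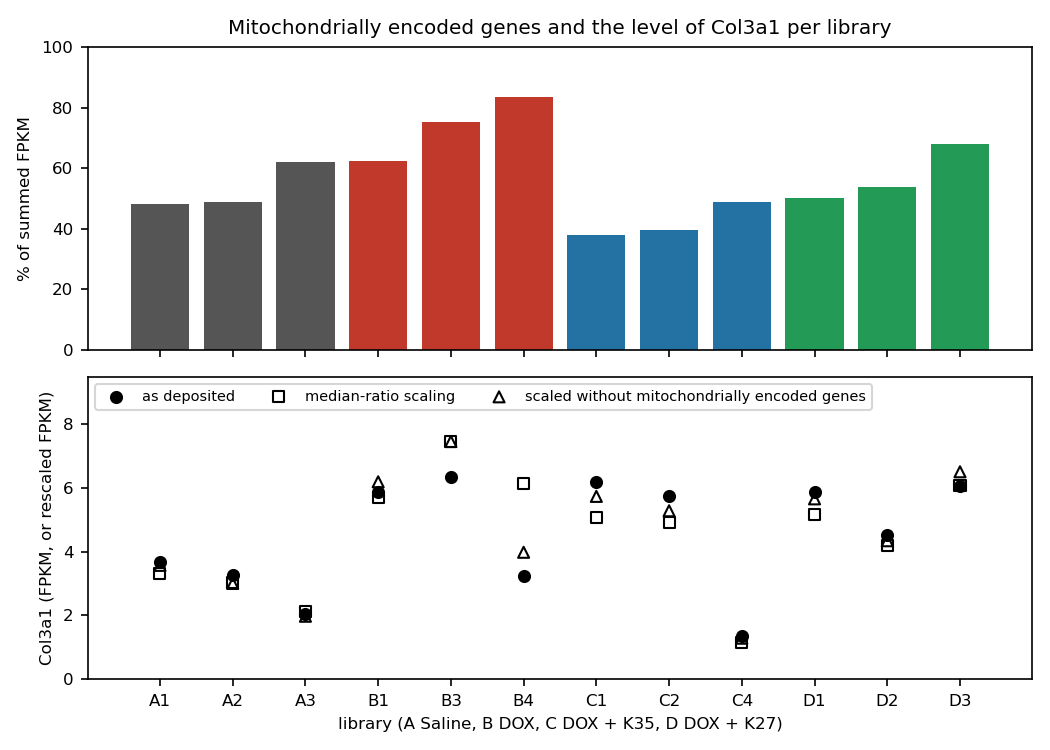
Upper panel, share of the 13 mitochondrially encoded genes in the FPKM summed over the authors' selection of genes, for each library, in percent. Lower panel, Col3a1 in FPKM as deposited and after 2 rescalings: B4 moves from 3.23 FPKM into the range of the other DOX libraries under median-ratio scaling, whereas C4 is the lowest library on all 3 scales.

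Libraries B4 and C4 set much of the spread. In B4 the values were 0.395, 0.507 and 0.528 times the mean of the other 2 DOX libraries for Col1a1, Col1a2 and Col3a1, and these 2 libraries alone averaged 2.97, 2.05 and 2.04 times the Saline mean. In C4 they were 0.350, 0.481 and 0.229 times the mean of C1 and C2, which averaged 2.81, 2.02 and 1.99 times Saline. The 2 libraries differed in how they responded to rescaling: B4 no longer lay inside the Saline range, whereas C4 did not exceed the highest Saline library under any of the 3 scalings. C4 also had 62.2 FPKM of summed globin transcripts against 369 and 596 FPKM in the other DOX + K35 libraries, and 15.0 FPKM of 3 summed sinusoidal endothelial markers against 4.92 to 10.6 FPKM in the other 11 libraries. Whether these features of C4 bear on its collagen values was not tested.

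The next comparison asked whether K35 changed the collagen transcripts in doxorubicin-treated mice. The mean in DOX + K35 was 0.929 times that in DOX for Col1a1, 0.976 times for Col1a2 and 0.862 times for Col3a1. The log2 differences were -0.066 (SE 0.26, 95% interval -0.62 to 0.49), -0.028 (SE 0.25, -0.57 to 0.51) and -0.30 (SE 0.37, -1.08 to 0.49). The limma adjusted p-values were 0.825, 0.924 and 0.492, and the exact permutation p-values 0.8, 0.8 and 0.6. Yet this was the comparison with the most calls, with 46% of genes tested higher and 10.7% lower at an adjusted p under 0.05, and a median log2 difference of 0.46. The collagens thus lay below the middle of all genes in this comparison as deposited, at percentiles 42.0, 43.3 and 29.1, and 0 of 3 were among the 56.8% called. Under median-ratio scaling, where 37.8% of genes passed as higher and 41.2% as lower and the median difference was -0.014, Col3a1 passed as lower at -0.80 (limma adjusted p = 0.0427), while Col1a1 at -0.41 and Col1a2 at -0.46 did not (adjusted p = 0.122 and 0.0617). As deposited, the Col3a1 difference was -0.028 without B4 and C4 and 0.22 without C4 alone.

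With K27 the means were 1.15, 1.19 and 1.07 times those in DOX for Col1a1, Col1a2 and Col3a1. The log2 differences were 0.15 (SE 0.26, -0.41 to 0.70), 0.20 (SE 0.25, -0.34 to 0.74) and 0.11 (SE 0.37, -0.68 to 0.90), with limma adjusted p-values of 0.752, 0.622 and 0.885 and exact permutation p-values of 0.7, 0.5 and 0.8. No collagen passed, in a comparison where 0.0603% of genes tested did. The sign of this small difference turned for all 3 genes under median-ratio scaling (-0.11, -0.13 and -0.28) and without B4.

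The 2 related compounds were compared directly at the same dose and time. The mean in DOX + K35 was 0.807, 0.819 and 0.807 times that in DOX + K27 for Col1a1, Col1a2 and Col3a1. The log2 differences, K35 minus K27, were -0.21 (SE 0.26), -0.23 (SE 0.25) and -0.41 (SE 0.37). Their 95% intervals ran from -0.76 to 0.34, from -0.77 to 0.31 and from -1.20 to 0.38, and each interval held 0. No gene passed (limma adjusted p = 0.515, 0.469 and 0.389; exact permutation p = 0.7, 0.5 and 0.7) in a comparison where 2.11% of all genes did. The sign again rested on C4, without which the differences were 0.048, 0.0051 and 0.11.

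Against Saline, the DOX + K27 group was the one whose libraries did not overlap with Saline for any of the 3 genes. Its means were 2.73, 2.04 and 1.83 times the Saline means, and 11% of all genes tested likewise had all 3 DOX + K27 libraries above all Saline libraries. The exact permutation p was 0.1 for each gene, the smallest this design allows. The log2 differences were 0.73 (SE 0.26, 95% interval 0.18 to 1.28), 0.69 (SE 0.25, 0.15 to 1.23) and 0.72 (SE 0.37, -0.070 to 1.50). Their limma adjusted p-values of 0.607, 0.632 and 0.864 missed the threshold, which 0.121% of genes passed, and 5.94% of genes had an unadjusted p under 0.05, among them Col1a1 (0.0131) and Col1a2 (0.0154). Here the median of all genes was near 0 (0.0039). The collagen differences moved to 0.71, 0.66 and 0.68 under median-ratio scaling and to 0.59, 0.58 and 0.66 under quantile normalization. The DOX + K35 means were 2.20, 1.67 and 1.48 times those of Saline, with log2 differences of 0.52 (SE 0.26, -0.035 to 1.07), 0.46 (SE 0.25, -0.079 to 1.00) and 0.31 (SE 0.37, -0.48 to 1.09). These did not pass either (limma adjusted p = 0.328, 0.373 and 0.638), while 0.181% of genes did, and the 2 groups overlapped through C4. The comparisons with Saline share its 3 libraries, and those with DOX share the DOX libraries.

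**Figure D3:**
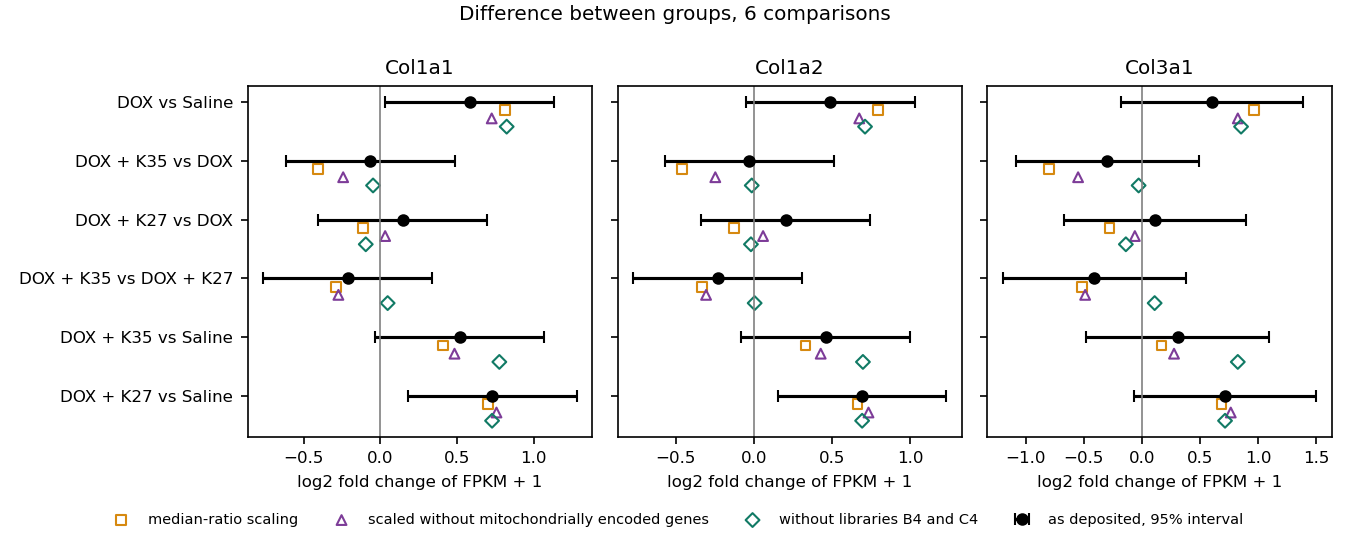
Log2 difference of FPKM + 1 of the 3 collagens in 6 comparisons, with the 95% interval from limma for the values as deposited and the estimate under 2 rescalings and without B4 and C4. The filled circles of the 3 comparisons with Saline lie above 0 for every gene, but their intervals exclude 0 only for Col1a1 in DOX and for Col1a1 and Col1a2 in DOX + K27. The circles between treated groups run from -0.41 to 0.20, and each of their intervals holds 0.

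The 3 genes varied together from liver to liver within groups. After subtracting each group's mean log2 value, Col1a1 and Col1a2 correlated over the 12 libraries with Pearson r = 0.977 and Spearman rho = 0.979. For Col1a1 and Col3a1 r was 0.912 and rho 0.923, and for Col1a2 and Col3a1 r was 0.933 and rho 0.937. Permuting libraries within groups over all 1296 arrangements gave an exact p of 0.000772 for each of the 3 relations, the smallest possible, and the same value after Benjamini-Hochberg adjustment over them. This permutation treats the 12 livers as independent and makes no use of the replicate numbers shared across groups. Without B4 and C4, the libraries farthest from the median, r was 0.945, 0.836 and 0.899. Under median-ratio scaling r was 0.961, 0.867 and 0.922 in the same order (exact permutation p at most 0.00386).

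Ratios between the genes within a library do not change when all its values are scaled by 1 factor, as in median-ratio scaling, but they do change under quantile normalization. The ratio of Col1a1 to Col1a2, the 2 chains of type I collagen, was 0.460, 0.416 and 0.404 in Saline and 0.584, 0.658 and 0.485 in DOX. It was 0.626, 0.570 and 0.435 in C1, C2 and C4, and 0.505, 0.539 and 0.663 in DOX + K27. As deposited, every DOX and DOX + K27 library thus had more Col1a1 per Col1a2 than any Saline library, and only C4 among the treated libraries lay inside the Saline range. After quantile normalization B4, at 0.429, lay at the lower end of Saline (0.429 to 0.488), and the log2 difference between DOX and Saline was 0.21 (exact permutation p = 0.4). The means were 0.427 ± 0.0298 for Saline, 0.576 ± 0.0866 for DOX, 0.543 ± 0.0979 for the K35 group and 0.569 ± 0.0828 for the K27 group (mean ± SD, n = 3 each). The log2 ratio differed from Saline by 0.42 in DOX and 0.41 in DOX + K27 (exact permutation p = 0.1 each, the smallest possible) and by 0.33 in DOX + K35 (exact permutation p = 0.2). Among the treated groups the log2 ratio differed by -0.088 between DOX + K35 and DOX, by -0.015 between DOX + K27 and DOX, and by -0.073 between DOX + K35 and DOX + K27 (exact permutation p = 0.6, 1 and 0.7).

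The ratio of Col3a1 to the sum of Col1a1 and Col1a2, type III against type I, gave no direction for DOX that held across scales. As deposited it was 1.46, 1.40 and 1.32 in Saline, 1.29, 1.18 and 1.40 in DOX, 1.23, 1.25 and 0.657 in DOX + K35, and 1.18, 1.32 and 1.02 in DOX + K27. The means were 1.39 ± 0.0715, 1.29 ± 0.111, 1.04 ± 0.336 and 1.17 ± 0.147 in that order (SD, n = 3 each). DOX overlapped with Saline, at a log2 difference of -0.11 (exact permutation p = 0.3), and after quantile normalization all 3 DOX libraries (1.45, 1.34 and 1.77) lay above Saline (1.30 to 1.34), at a log2 difference of 0.20 (exact permutation p = 0.1). DOX + K35 and DOX + K27 each lay below Saline in every library, D2 only just (1.315 against 1.318 in A3), with mean log2 differences of -0.47 and -0.26 (exact permutation p = 0.1 each, the smallest possible), and of -0.50 and -0.13 after quantile normalization, again with no overlap. Between treated groups the log2 ratio differed by -0.36 for DOX + K35 against DOX, -0.15 for DOX + K27 against DOX and -0.22 for DOX + K35 against DOX + K27 (exact permutation p = 0.4, 0.4 and 0.7). After quantile normalization these were -0.70, -0.33 and -0.37, with exact permutation p = 0.1 each. In C4 the ratio was the lowest of all, and without C4 the difference of DOX + K35 from Saline was -0.17.

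**Figure D4:**
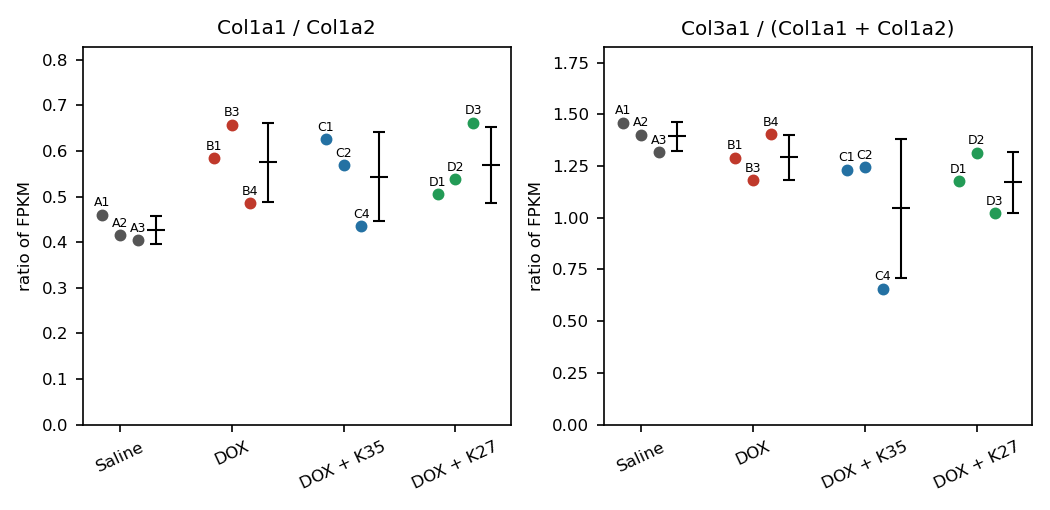
Ratio of Col1a1 to Col1a2 and of Col3a1 to their sum in each library, both as ratios of FPKM, with the group mean and SD. In the left panel all treated libraries except C4 (0.435) lie above the highest Saline library (0.460), and in the right panel C4 (0.657) stands alone below the rest.

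The genes whose pattern over the 12 libraries was most like the collagens were drawn from 3126 tested genes with a symbol, by Pearson r between their log2 values and the mean standardised profile of the 3 genes. The median r over these genes was 0.0808, and only 2 genes exceeded 0.9. These were Pcolce at 0.913, a secreted protein that enhances cleavage of the procollagen C-terminal propeptide, and Serpinh1 at 0.908, the collagen-specific chaperone HSP47 of the endoplasmic reticulum. Among the genes next in order were Dpt, the matrix protein dermatopontin, at 0.898 and Serpina12, the adipokine vaspin, at 0.834. These r values describe the libraries as deposited and carry no test. All genes of a library share its depth and scale, and the scale differed between libraries. Serpinh1 averaged 3.80 ± 0.659 FPKM in Saline and 5.70 ± 1.79, 5.49 ± 2.29 and 5.54 ± 0.833 in DOX, DOX + K35 and DOX + K27 (SD, n = 3 each), with 3.70 in B4 and 3.05 in C4. Pcolce averaged 4.23 ± 0.457 FPKM in Saline and 5.72 ± 2.17, 5.01 ± 1.84 and 6.18 ± 1.57 in the treated groups, with 3.38 in B4 and 2.89 in C4. Both were low in B4 and C4 as deposited, as the collagens were. B4 had the lowest median ratio of the libraries (0.526), and these 2 genes were not read library by library after rescaling. None of these 4 genes passed in any comparison as deposited. Under median-ratio scaling Serpinh1 and Serpina12 passed as higher in DOX than in Saline (limma adjusted p = 0.0435 and 0.0477), beside 18.5% of all genes tested. Under that scaling all 4 passed as lower in DOX + K35 than in DOX, beside 41.2% of all genes tested. Pcolce was at -0.67, Serpinh1 at -0.60, Dpt at -0.56 and Serpina12 at -0.83 (limma adjusted p = 0.0238, 0.0351, 0.0499 and 0.0327).

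Related genes were read from lists, and their counts cover only the genes that were in the authors' selection and passed the filter on level. Many of their calls turned with the scale, and they are given as deposited and under median-ratio scaling. Under that scaling 18.5% of all genes tested passed as higher and 11.6% as lower between DOX and Saline. Between DOX + K35 and DOX the shares were 37.8% and 41.2%. Of 8 other fibrillar collagens the table held 2. Col5a2, a regulatory chain of collagen fibrils, averaged 0.460 FPKM and was not tested. Col27a1 averaged 2.39 ± 0.310 FPKM for Saline, 4.97 ± 1.28 for DOX, 3.88 ± 1.39 for the K35 group and 4.03 ± 1.95 for the K27 group (mean ± SD, n = 3 each). Its log2 difference between DOX and Saline was 0.80 (SE 0.29, limma adjusted p = 0.0633), of the same sign as the 3 collagens and also short of the threshold. Like them it passed as higher under median-ratio scaling (1.17, limma adjusted p = 0.0435), and it also did under quantile normalization (1.11, 0.0455). In DOX + K35 against DOX it was at -0.31 as deposited (limma adjusted p = 0.369) and passed as lower under median-ratio scaling (-0.83, 0.0317).

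Of 33 other collagens 8 were in the table and 5 were tested. None passed between DOX and Saline as deposited, where the median of the 5 was 0.12 on the log2 scale beside -0.34 for all genes. Under median-ratio scaling Col6a1 (0.69, limma adjusted p = 0.0435) and Col20a1 (0.85, 0.0484) passed as higher there and as lower in DOX + K35 against DOX (-0.41 and -0.83, 0.0343 and 0.0243), and both were named after their values were seen. The most abundant was Col18a1, whose product carries endostatin and sits in basement membranes, with 139 ± 23.7 FPKM for Saline, 86.7 ± 31.5 for DOX, 178 ± 11.8 for the K35 group and 122 ± 12.7 for the K27 group (mean ± SD, n = 3 each). Its level was thus far above that of the 3 fibrillar collagens, and it rose with K35 against DOX by 1.09 on the log2 scale (limma adjusted p = 0.0123). It was the 1 gene of the 5 that passed there as deposited, and it also passed under median-ratio scaling at 0.47 (limma adjusted p = 0.0443) but not under quantile normalization (0.118). Col4a1, a basement membrane chain, differed by 0.12 between DOX and Saline (limma adjusted p = 0.658).

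Among 33 genes of collagen synthesis, folding and cross-linking, 8 were in the table, 6 were tested and none passed between DOX and Saline as deposited, with a median log2 difference of -0.061. Under median-ratio scaling the median was 0.32 and 2 of the 6 passed as higher, Fkbp14 and Serpinh1 (0.86 and 0.82, limma adjusted p = 0.0435 each). In DOX + K35 against DOX 3 of the 6 rose, beside 46% of all genes tested. These were Tgm2, a transglutaminase that cross-links matrix proteins (1.16, limma adjusted p = 0.0435), Colgalt1, which adds galactose to collagen hydroxylysine (1.10, 0.00539), and Plod1, a lysyl hydroxylase (1.03, 0.00988). Colgalt1 and Plod1 also passed as higher under median-ratio scaling, and Tgm2 did not (limma adjusted p = 0.170). Under that scaling 3 others passed as lower in this comparison, namely Fkbp14, Serpinh1 and Pcolce, at -0.89, -0.60 and -0.67, and these were named after their values were seen.

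Receptor, breakdown and other matrix genes were read in the same comparison, in which 46% of all genes rose. Itgb1, the beta 1 integrin subunit of the collagen receptors and the 1 receptor gene tested, rose with K35 by 1.40 (limma adjusted p = 0.00885). Of 3 breakdown genes, Pepd, a dipeptidase that frees proline from collagen fragments, rose by 1.11 (limma adjusted p = 0.0282) and Mmp14, a membrane-bound matrix metalloproteinase, by 0.96 (0.0138). Ctsb, a lysosomal cysteine protease, was at 0.87 and did not pass (0.10004). Of 3 other matrix genes tested, Fn1, fibronectin, rose by 1.55 (0.00567) and Nid1, a basement membrane linker, by 0.79 (0.00904), while Dpt was at -0.18 (0.574). Itgb1, Mmp14, Fn1 and Nid1 passed as higher under median-ratio scaling too, and Pepd did not (0.0873), while Dpt passed as lower. Between DOX and Saline no gene of these lists passed as deposited, with Ctsb at -1.33 (0.0612), Pepd at -1.26 (0.0612) and Fn1 at -0.96 (0.0639). Under median-ratio scaling Ctsb (-0.90, limma adjusted p = 0.0469) and Pepd (-0.88, 0.0454) passed as lower in DOX, and Fn1 did not (0.0755).

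TGF-beta is the leading inducer of collagen transcription in stellate cells, acting through its receptors and Smad proteins. Of 31 genes of TGF-beta and PDGF signalling 12 were in the table and 10 were tested, and none passed between DOX and Saline as deposited. Under median-ratio scaling Tgfb1i1 passed as higher there (0.83, limma adjusted p = 0.0435). In DOX + K35 against DOX 5 of 10 rose, beside 46% of all genes tested, led by the receptor Tgfbr2 (1.30, limma adjusted p = 0.00540), the receptor-activated Smad2 (1.10, 0.00721), its partner Smad4 (1.01, 0.00516) and the Smad repressor Ski (0.85, 0.0139). The fifth, the co-receptor Tgfbr3 (0.51, 0.0172), was named because it completes the count. Of these 5, Tgfbr2, Smad2 and Smad4 passed under median-ratio scaling, and Ski and Tgfbr3 did not (0.132 and 0.134). Under that scaling 3 others passed as lower, Cyr61 at -1.04, Tgif1 at -0.90 and Tgfb1i1 at -0.80 (limma adjusted p = 0.0152, 0.00820 and 0.00764), so that the list was split 3 to 3, and these were named after their values were seen. As deposited the median over the 10 genes was 0.49, beside 0.46 for all genes tested. As deposited, no gene of the collagen, matrix or signalling lists passed in the comparisons of DOX + K27 with DOX, of DOX + K35 with DOX + K27, or of either with Saline. For DOX + K35 against DOX + K27, Colgalt1 passed under median-ratio scaling (limma adjusted p = 0.0497). Without B4 and C4 6 genes of these lists passed there (limma adjusted p = 0.0241 to 0.0400). This stood beside 773 of all genes tested, against 70 as deposited (2.11% of 3317). Col20a1 and Fkbp14 passed as lower (-0.69 and -0.58). Col15a1, Colgalt1, Fn1 and Tgm2 passed as higher (0.63, 0.66, 0.98 and 1.24).

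**Figure D5:**
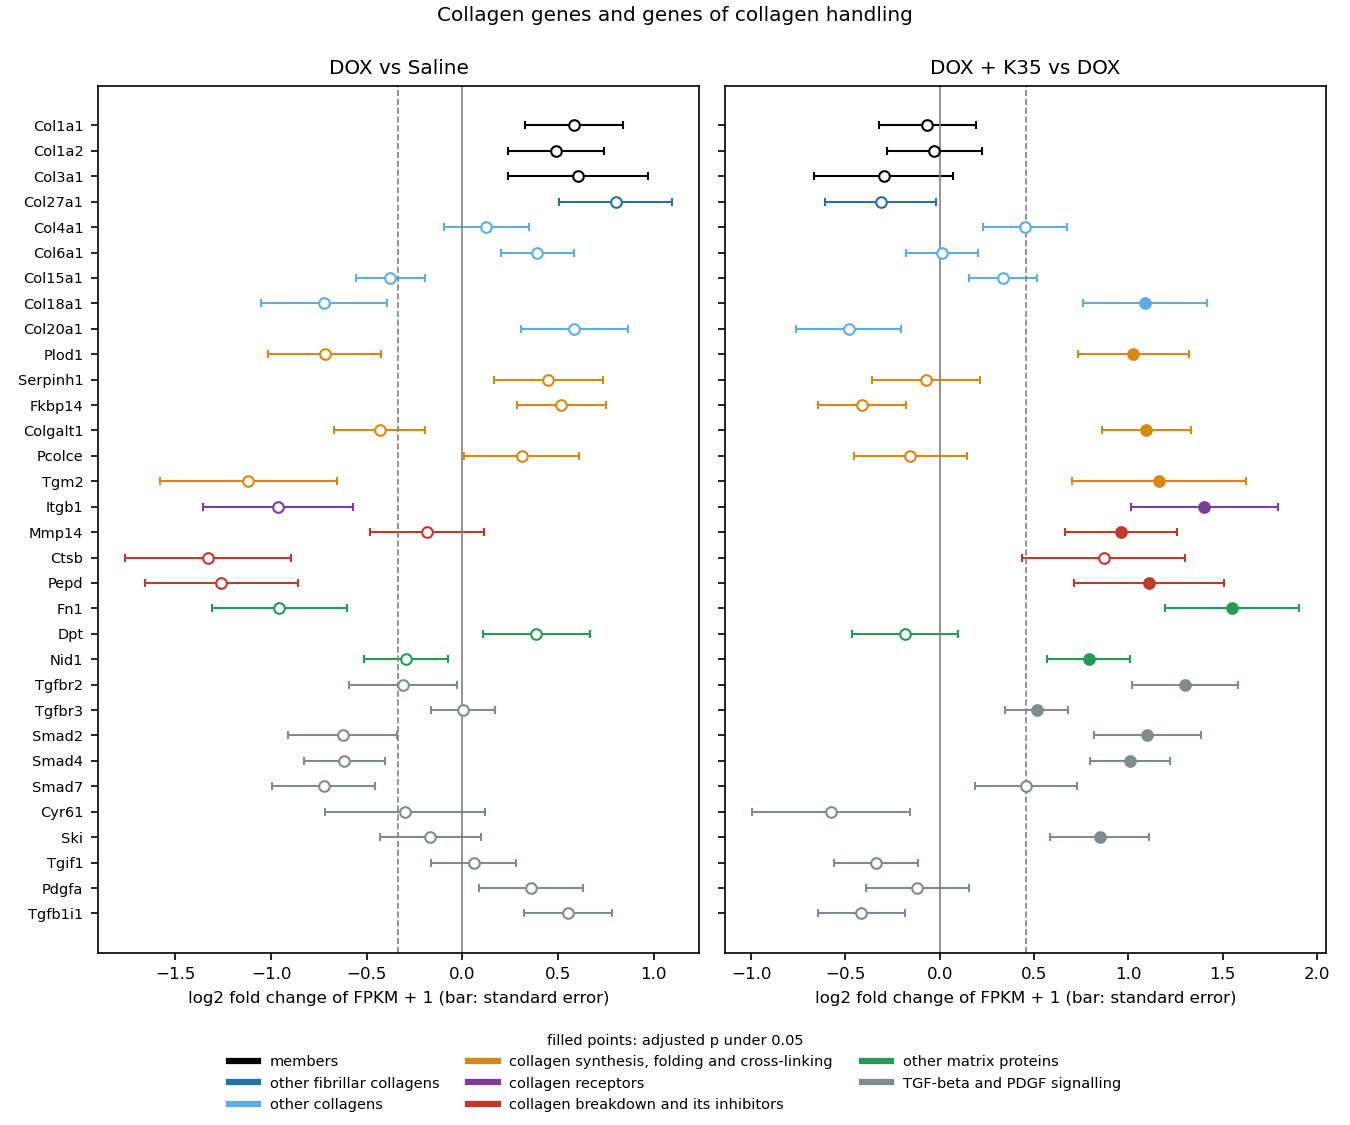
Log2 difference of FPKM + 1 with its standard error for the 3 collagens and the tested genes of 7 lists of collagen handling, for DOX against Saline and DOX + K35 against DOX, with the dashed line at the median of all genes tested (-0.34 and 0.46). No point is filled (adjusted p under 0.05) on the left, and on the right all filled points lie above 0 while the 3 collagens lie just below it.

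Markers of the cells that make collagen were read beside these values. The 4 stellate and contractile markers in the table, of 20 in the list, were Acta2, Tagln, Myl9 and Vim. Their summed level was 16.9, 20.4 and 24.7 FPKM in Saline, 33.1, 35.8 and 23.5 in DOX, 20.1, 22.5 and 19.4 in DOX + K35, and 23.4, 22.6 and 34.5 in DOX + K27. As deposited B4 was the lowest of DOX, but C1 and C2, which had high collagen levels, had marker sums within the Saline range. The sums were not rescaled, and B4 had a median ratio of 0.526 against 0.852 to 1.22 in the other libraries. Its place within DOX is thus given only as deposited. No stellate marker passed between DOX and Saline as deposited, with a median log2 difference of 0.64. Acta2, Tagln and Myl9 passed as higher under median-ratio scaling (limma adjusted p = 0.0442, 0.0428 and 0.0276), beside 18.5% of all genes tested. Acta2, the smooth muscle actin of activated stellate cells, and Myl9, a myosin light chain, fell with K35 against DOX, beside 10.7% of all genes tested. Their log2 differences were -0.80 and -0.72 (limma adjusted p = 0.0259 and 0.0165). Under median-ratio scaling all 4 markers passed as lower there, beside 41.2% of all genes tested. The 6 portal fibroblast markers in the table, of 10, summed to 2.39 to 4.17 FPKM in Saline, 3.53 to 10.7 in DOX, 5.34 to 7.08 in DOX + K35 and 4.11 to 8.61 in DOX + K27. Within DOX, B4 had the lowest sum and the lowest collagen level, both as deposited, whereas C4 at 6.62 FPKM was not the lowest of its group. The part of cell composition in the collagen levels was not tested.

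Markers of other cell types were read in the same way. The 8 Kupffer cell markers summed to 104 to 275 FPKM in Saline and 31.2 to 79.5 in DOX, and to 78.1 to 124 in DOX + K35 and 78.8 to 133 in DOX + K27. None of the 8 passed between DOX and Saline as deposited, and 4 passed as lower in DOX under median-ratio scaling, beside 11.6% of all genes tested. As deposited, 5 of the 8 rose in DOX + K35 against DOX, beside 46% of all genes, among them Marco (1.50), Vsig4 (1.20), Cd5l (1.14) and Cd163 (0.86), and none of the 8 passed there under median-ratio scaling. The fifth was Adgre1 (0.68), named to complete the count. Of 3 sinusoidal endothelial markers Lyve1 and Pecam1 rose there (0.95 and 0.79, limma adjusted p = 0.0292 and 0.0222), not under median-ratio scaling, while the third, Stab1, was at -0.35 (0.263) and passed as lower under that scaling (-0.87, 0.0114). The 4 globin genes fell in that comparison, beside 10.7% of all genes tested, and without B4 and C4 none of the 4 passed. The 6 hepatocyte markers, by which the labelled tissue was checked, summed to 11681 to 20884 FPKM as deposited in all libraries, with the lowest sum in B4. Beside 46% of all genes tested, 4 of the 6 rose with K35 against DOX (Cps1, Cyp2e1, Cyp3a11 and Tat, the last not under median-ratio scaling). The other 2, Apoa1 and Apoa2, were at -0.45 and -0.61 and did not pass (limma adjusted p = 0.200 and 0.0866), but passed as lower under median-ratio scaling (0.00844 and 0.00738). The levels of the collagen genes and of these markers were read from the same livers, and their relation was not tested.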

How the data were processed

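RNA-seq of 12 mouse livers, 4 groups of 3, was read from the FPKM-type table deposited by the authors. Poly-T selected RNA had been sequenced on a NovaSeq instrument. The submitters' processing notes name HISAT2, DESeq2, edgeR and GRCm38, with no roles or versions; the counting method is not given in the sources used here. The header names no unit, and TPM values would differ from FPKM by 1 factor per library. Depth is unknown.

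The 3317 of 3799 genes whose mean reached 1 FPKM were fitted with limma (lmFit, then eBayes with a trend) on log2(FPKM + 1), by group, using the 12 libraries together. P-values were adjusted by Benjamini-Hochberg within each of 6 comparisons, with a threshold of 0.05. For single levels and ratios an exact permutation test was used, two-sided and with 3 libraries against 3, so that p cannot go below 0.1. The fit was tested on simulated data. Groups came from the sample labels. The p-values measure the spread between these libraries. The members, gene lists and tests were chosen with earlier results of these data known. The correlations were planned as a permutation test over the pooled libraries. That test was run once and then replaced by deviations from group means permuted within groups, because the pooled libraries fell into a low and a high set.

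Named genes were the 3 collagens, up to 4 genes of each list with the largest change past the threshold (where none passed, up to 2 with the highest mean), the 5 genes with the most similar pattern and the nearest neighbours. Other genes were named after their values were seen. Positions came from GENCODE M21, in which each of the 3519 Ensembl identifiers was found, and promoter windows came from RefSeq. Alternatives were a pseudocount of 0.1, no filter, 3 rescalings, fits of only the 2 groups compared, no trend, the replicate number as a block, and fits without each library in turn. The fit without B4 and C4 and the ratios after quantile normalization were added after seeing the data. Same-numbered livers of Saline and DOX + K27 deviated together (r = 0.258, 0.176 and 0.474 across genes), and across all 10 same-numbered pairs r ran from 0.109 to 0.474, so the numbers met the rule set for pairs (every r over 0.1). The 19 differently numbered pairs ran from -0.679 to 0.5585, some of them above the same-numbered ones. Some genes that the rule or the lists would name are not reported here. The software was limma 3.58.1 in R 4.3.3, with numpy 2.4.6, scipy 1.17.1, pandas 2.3.3 and matplotlib 3.10.9 in Python 3.11.15.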

Additional observations from a re-analysis of the deposited data

How the results depend on the processing

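As deposited, none of the 3 collagens passed in any comparison, and that held in all 12 fits that each left out 1 library. Median-ratio scaling brought all 3 past the threshold between DOX and Saline (0.82, 0.79 and 0.97 for Col1a1, Col1a2 and Col3a1) and Col3a1 past it between DOX + K35 and DOX (-0.80); beside these 4, no alternative changed a call. The comparisons with Saline kept their sign under every alternative. Over the fits without 1 library, Col1a1, Col1a2 and Col3a1 ran from 0.41 to 0.82, 0.34 to 0.71 and 0.42 to 0.85 for DOX against Saline, the highest values without B4 (limma adjusted p = 0.182 for each gene), while the lowest adjusted p was 0.0576 for Col1a1 without C4, and Col3a1 from 0.025 to 0.83 for DOX + K35 against Saline, the highest without C4.

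The comparisons among treated groups did not keep their sign. Without 1 library, DOX + K35 against DOX ran from -0.31 to 0.19, -0.25 to 0.21 and -0.58 to 0.22, DOX + K27 against DOX from -0.095 to 0.32, -0.019 to 0.36 and -0.14 to 0.26, and DOX + K35 against DOX + K27 from -0.38 to 0.048, -0.39 to 0.0051 and -0.69 to 0.11. The sign turned without C4 for all 3 genes in both K35 comparisons, without B4 for all 3 in DOX + K27 against DOX, and for single genes without B1, B3 or D3. For DOX + K27 against DOX it also turned under median-ratio scaling (-0.11, -0.13 and -0.28), under quantile normalization (Col1a2 -0.016, Col3a1 -0.27), when scaled without mitochondrially encoded genes (Col3a1 -0.061) and without B4 and C4 (-0.095, -0.019 and -0.14). Without B4 and C4, DOX + K35 against DOX + K27 was at 0.048, 0.0051 and 0.11.

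The replicate block, fitted over the 9 numbered libraries, treats same-numbered livers as paired and leaves DOX with B1 alone, which is assumed to vary like the rest. It turned DOX + K35 against DOX to 0.15, 0.14 and 0.11 and DOX + K35 against DOX + K27 to 0.082 (Col1a1) and 0.050 (Col3a1), and changed no call of a collagen. Under the block 330 genes passed for DOX against Saline (6 as deposited), 1448 for DOX + K35 against DOX + K27 (70), 235 for DOX + K35 against Saline (6), 0 for DOX + K27 against DOX (2, with 634 at an unadjusted p under 0.05) and 0 for DOX + K27 against Saline (4, with 969).

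The other counts of genes called were as unstable. For DOX against Saline they were 2 with a pseudocount of 0.1, 11 with no filter, 1000 with median-ratio scaling, 765 with quantile normalization, 2 without trend and 24 without B4 and C4, and 2 to 1474 without 1 library, the highest without B1 and 1190 without A3. For DOX + K27 against DOX they were 5 with quantile normalization, 0 without the mitochondrially encoded genes (653 unadjusted), 7 in the fit of 2 groups and 4 without trend, and 0 to 1097 without 1 library, the highest without B1. For DOX + K35 against DOX + K27 they were 214 with median-ratio scaling, 183 with quantile normalization, 119 without the mitochondrially encoded genes, 27 in the fit of 2 groups, 41 without trend and 773 without B4 and C4, and 16 (without D2) to 282 (without B4) without 1 library. For DOX + K35 against Saline they were 3 with no filter, 1 with quantile normalization, 0 in the fit of 2 groups (655 unadjusted) and 0 without trend (511), and 0 to 18 without 1 library. For DOX + K27 against Saline they were 10 with no filter, 1 with median-ratio scaling, 1 with quantile normalization and 0 without trend (184), and 0 to 9 without 1 library. Only DOX + K35 against DOX stayed within 1.5 times its count of 1883 under every alternative, at 1517 to 2105 without 1 library. Its directions did not stay the same, with 1527 genes higher and 356 lower as deposited and 1255 higher and 1366 lower under median-ratio scaling. The cause was not tested.

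Adding a pseudocount of 1 to both terms reduced the difference in the log2 ratio of Col1a1 to Col1a2 against Saline to 0.095 for DOX, 0.056 with K35 and 0.037 with K27. Quantile normalization, added after seeing the data, moved it to 0.21 for DOX and turned the ratio of Col3a1 to the sum of the other two from -0.11 to 0.20 for DOX against Saline. It also turned the Col1a1 to Col1a2 ratio among treated groups to 0.15, 0.089 and 0.062. With the pseudocount the signs against Saline stayed positive, and Col1a1 lies near 1 FPKM, where such an addition weighs most.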
